A study of Mus musculus with 4 samples.

Results

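Conventional dendritic cells (cDC) made up 92 of the 68087 cell barcodes kept from the immune cells of mouse small-intestinal crypts. They were selected on their UMI counts, where a UMI marks 1 captured transcript molecule. Each has at least 3 UMIs of the MHC class II chain H2-Aa and at least 1 of cystatin C (Cst3). Each also has at least 1 UMI over the 6 genes Flt3, Zbtb46, Cd209a, Xcr1, Itgax and Apol7c, and fewer than 3 of the myeloid lysozyme Lyz2. None has a UMI of Cd79a or Ms4a1 (B cells), Siglech (plasmacytoid dendritic cells, pDC) or Cd3e, Cd3d and Cd3g (T cells). Values of these 15 genes are therefore given as a description only. The study sorted CD45+ cells by flow cytometry from crypts of mice on a control diet or a diet rich in cystine, a disulfide-linked pair of cysteines, with 2 samples per diet and 18000 cells loaded for each. The labels enter "Male" under genotype and give no strain, age, diet dose or feeding time. Diets were read from the sample titles, since the treatment entry reads Control for all 4. Nothing says whether a sample is 1 mouse or a pool, so each p-value measures only the spread between these 4 samples.

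Conventional dendritic cells take up antigen, load its peptides onto MHC class II and present them to T cells, and in the gut they decide much of how T cells answer food and microbes. The cDC1 subset, which depends on Batf3 and Irf8 and carries Xcr1 and Clec9a, is known for cross-presenting antigen from dying cells to CD8+ T cells. The cDC2 subset, which carries Sirpa, Itgam and, in many tissues, Cd209a and Clec10a, is known for presentation to CD4+ T cells. Upon maturation either subset can turn on Ccr7, the receptor that guides it to lymph nodes, together with Fscn1, Ccl22 and Il4i1.

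The members numbered 18 and 12 in control samples 1 and 2, and 33 and 29 in cystine samples 1 and 2. Their summed libraries held 53607, 42926, 131315 and 123010 UMIs, so the control sums are the shallower ones. The median member had 2799.5, 3185, 3933 and 4093 UMIs in the same order. The median number of genes detected per member was 993, 945, 1489 and 1536. Levels are given as CPM, the UMIs of a gene per 1000000 UMIs of the summed members of a library, which needs no scaling by gene length because each molecule counts once. Beside these cells, 55533 kept barcodes passed a T cell gate, 2263 a B cell gate, 1239 a pDC gate and 178 a monocyte and macrophage gate. Of the 65768 kept barcode sequences, 2268 occurred in more than 1 library. The barcodes of 6 members were also kept in another library, and no barcode was a member in 2 libraries. Scrublet scores placed 15 of the 92 members among the likeliest doublets, and no cell was removed for that.

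Of the 6 genes that admitted a cell, Apol7c was detected in 49 members and was the sole one in 16. Itgax was detected in 43, Cd209a in 41, Flt3 in 33, Zbtb46 in 15 and Xcr1 in 12, and 32 members had only 1 of the 6. The borders of the definition were thin. A further 46 barcodes met every other condition with 0 UMIs over the 6 genes, and 28 missed only through 3 or more Lyz2 UMIs, whereas 10 members entered on a single UMI over the 6 genes. The labelled cell type could be checked on genes outside the definition. Batf3, a transcription factor of conventional dendritic cells, was detected in 38.0% of members. After thinning each cell to 1000 UMIs it was detected in 14.3% of members, 0.789% of T cells, 9.25% of monocytes and macrophages and none of the 1194 pDC deep enough to thin. Median depth was 3638.5 UMIs in members, 1511 in T cells, 2832 in pDC and 2970 in monocytes and macrophages. Batf3 was thus more frequent in members than in these other cells after thinning. Over a list of cDC identity genes, without those of the definition, members summed to 1996, 2306, 2338 and 2049 CPM by sample. On the same genes pDC stood at 2777 CPM, monocytes and macrophages at 1226, B cells at 729 and T cells at 498. The list as a whole thus did not set members above pDC. Some single members carried genes of other cells. In 8 members there were at least 2 UMIs over the pDC genes Ly6d, Cox6a2 and Klk1 (1, 0, 3 and 4 cells by sample). In 1 control 1 member the macrophage complement gene C1qa reached 10 UMIs. The monocyte-associated gene Ly6c2 reached 8 UMIs in 1 control 1 member and 23 in 1 cystine 2 member, with 14 and 20 UMIs of Plac8. Both lie in the cDC1 gate described below, with 1 and 2 UMIs of Clec9a, and both also carry Cd209a. In 1 control 2 member of the mature gate the eosinophil granule gene Prg2 reached 8 UMIs, beside 2 of Cst3. A single cystine 2 member held 228 of the 319 UMIs of the T cell granzyme Gzma. After thinning, Gzma was detected in 28.6% of members, 27.4% of pDC and 88.7% of T cells.

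MHC class II genes were among the most abundant transcripts of these cells. Cd74, the invariant chain that guards the peptide groove until antigen is loaded, stood at 55832, 52952, 54556 and 50898 CPM in control 1, control 2, cystine 1 and cystine 2. Its level varied little between the samples and compares with 4090 CPM in all other kept cells pooled, most of which are T cells. H2-Ab1, the class II beta chain, stood at 4272, 3704, 5719 and 5496 CPM, and H2-Eb1 at 8208, 6500, 10357 and 9324 CPM. H2-Ab1 was 2148 CPM in B cells, 995 in pDC, 1371 in monocytes and macrophages and 30.7 in T cells, so that each sample's members lay above every other gated cell type. The definition asked for at least 3 UMIs of the class II chain H2-Aa, while the other gates asked for no class II gene. The higher class II levels of members were thus favoured by the selection and carry no test. The genes that edit or restrain peptide loading were detected too. H2-DMa and H2-DMb1, the chains of the peptide exchange factor, were detected in 73 and 72 members, and H2-Oa and H2-Ob, chains of its inhibitor, in 53 and 23. Ciita, the master activator of class II transcription, had 47 UMIs in 32 members. Outside antigen presentation, the highest levels were those of the cytoskeletal genes Actb (22123 CPM), Tmsb4x (19318 CPM) and Tmsb10 (10144 CPM).

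The promoters of 3 class II genes are shown because all 3 share the Y box, a short element of class II promoters that NF-Y binds, at a similar distance from the start. The letters CTGATTGG were searched on both strands in the RefSeq windows of build GRCm38.p6, which run from 250 bases before to 50 bases after a gene's start. They occurred in 4.10% of 32851 windows and in 3 of the 7 class II H2 genes of the list that had one. Capitals mark the match, and each run ends before the gene's start.
H2-Aa: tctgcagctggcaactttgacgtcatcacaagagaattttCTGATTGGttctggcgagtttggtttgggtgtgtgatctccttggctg
H2-Eb1: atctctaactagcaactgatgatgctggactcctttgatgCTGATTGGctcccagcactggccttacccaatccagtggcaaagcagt
H2-Oa: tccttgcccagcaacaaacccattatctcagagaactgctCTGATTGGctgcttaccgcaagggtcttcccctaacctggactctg
These runs lie at chr17:34287827-34287914 on the minus strand, chr17:34305765-34305852 on the plus strand and chr17:34092293-34092378 on the plus strand. The match ended 43, 54 and 38 bases before the start. H2-Oa was detected in 57.6% of members at 430 CPM. A match to these letters is a description of the sequence, and binding was not measured.

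Ranked by the ratio of their pooled level to that in all other kept cells, the leading genes outside the definition joined several functions. They were Gp2, Ppp1r14a, Ccl22, Aldh1a2, Plet1, Gsg1, Il1r2, Fscn1, Ffar2, Slamf8, Rtn1, Gm34084, Shtn1, Hfe, Cxcl16, Cd209c, Tbc1d9, Pilra, Ltc4s and Xlr. The ranking follows from how the cells were chosen and carries no test. Gp2, a glycoprotein best known as a bacterial receptor of M cells, had 17, 13, 36 and 9 UMIs, or 317, 303, 274 and 73.2 CPM. Its 18 positive cells included 17 of the cDC2 gate described below and none of the cDC1 gate. Il1r2, the decoy receptor that binds interleukin 1 without signalling, had 17, 3, 59 and 58 UMIs, or 317, 69.9, 449 and 472 CPM. Plet1, a surface protein found on some gut dendritic cells, had 6, 4, 49 and 22 UMIs in 34 cells, or 112, 93.2, 373 and 179 CPM. Ffar2, a receptor for short-chain fatty acids, was detected in 22 cells. T cells carried Gp2 at 0.359 CPM, Il1r2 at 1.85 and Plet1 at 0.423.

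**Figure D1:**
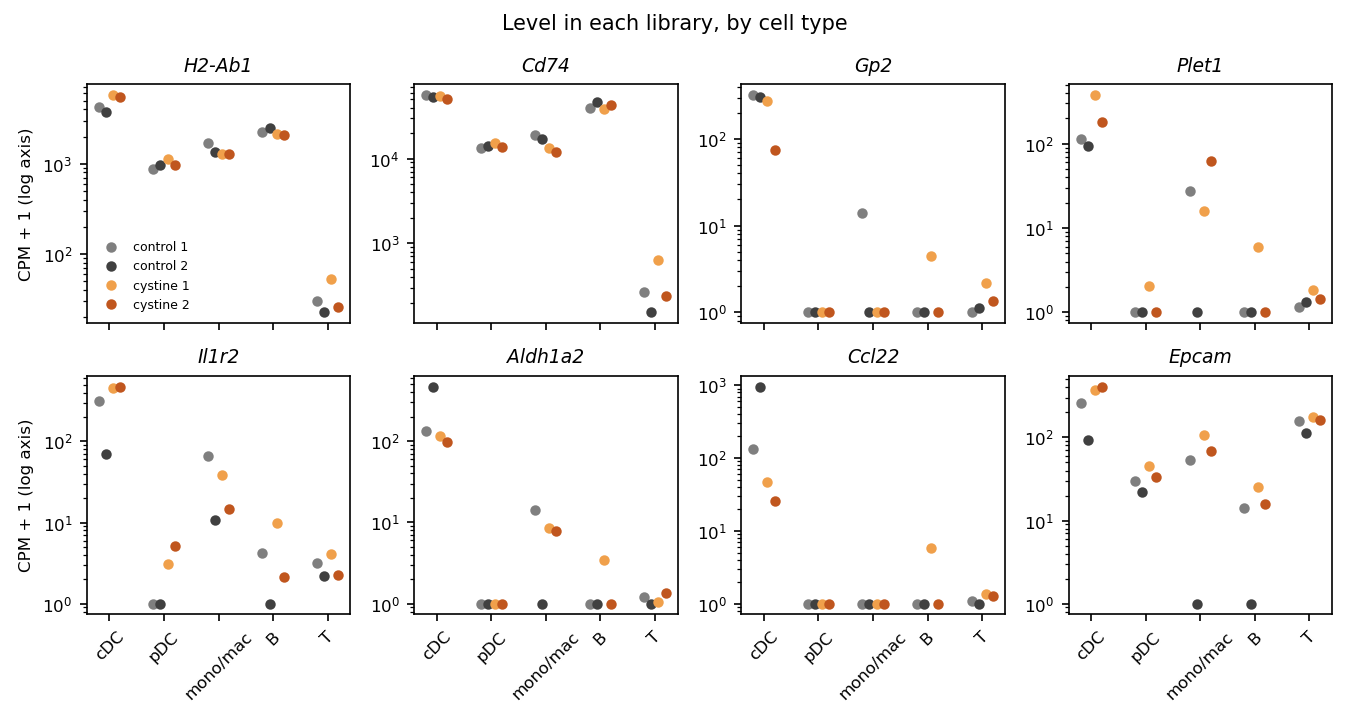
Level of 8 genes (CPM + 1, log axis) in each of the 4 libraries, for the conventional dendritic cells (cDC), plasmacytoid dendritic cells (pDC), monocytes and macrophages (mono/mac), B cells and T cells; each point is the summed cells of 1 library. H2-Ab1 was 3704 to 5719 CPM in cDC and highest there in every library, a contrast favoured by selection of the cDC on H2-Aa. Epcam in control 2 (93.2 CPM) lay below the T cells of that library.

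Epcam, the adhesion molecule of epithelial cells that some dendritic cells also carry, was detected in 40 of 92 members. It had 14, 4, 49 and 50 UMIs by sample, or 261, 93.2, 373 and 407 CPM. Cells of the cDC2 gate held most of it, 29 of 44 cells at 497 CPM, against 5 of 25 cells at 79.7 CPM in the cDC1 gate. After thinning to 1000 UMIs it was found in 27.5% of members, 12.7% of T cells, 3.60% of pDC, 1.73% of monocytes and macrophages and 1.77% of B cells. The epithelial keratins Krt8, Krt18 and Krt19 had 0 UMIs in the members, which allows a share of up to 3.26% of cells with a UMI. They are among 7 of 13 listed enterocyte genes with 0 UMIs. The other 6, Epcam included, had 132 UMIs, and 117 of these were of Epcam, so a few came from other enterocyte genes. The Paneth cell defensin Defa24 went another way. Its members' levels were 0, 0, 122 and 276 CPM by sample, those of pDC 1.67, 1.49, 136 and 268, and those of T cells 1.28, 4.19, 286 and 528. Defa24 was thus high in cystine libraries and near 0 in control libraries in all 3 cell types.

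The 92 cells fell into gates set by subset genes. The cDC1 gate (any UMI of Clec9a or Xcr1) held 25 cells, the mature gate (at least 2 UMIs over Ccr7, Fscn1, Ccl22 and Il4i1) held 12, and 3 cells were in both. The cDC2 gate (any UMI of Cd209a, Clec10a or Mgl2 and none of the cDC1 genes) held 44 cells, and 14 were in no gate. Calls on single UMIs are sensitive to depth, and the median cell had 3022 UMIs in the cDC1 gate, 4432.5 in the cDC2 gate and 2734 in the mature gate. Of the cDC1 gate, 9 cells rested on 1 UMI over its genes, and 11 also carried a cDC2 gene. Of the cDC2 gate, 13 cells rested on 1 UMI over its genes. The 8 members with pDC genes lay in the cDC1 gate (2 cells), the cDC2 gate (3) and no gate (3).

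Several genes that did not set the gates followed them, though not all did. Irf8, the transcription factor on which cDC1 depend, was detected in 21 of 25 cDC1-gate cells and 7 of 44 cDC2-gate cells, with pooled levels of 820 and 68.0 CPM. Among the 22 cells with Clec9a, 19 had Irf8 and none had Il1r2. Naaa, a lipid amidase used as a cDC1 marker, stood at 228 against 52.3 CPM, Ppt1, a lysosomal thioesterase, at 706 against 73.2, and the tetraspanin Cd81 at 330 against 5.23. In the cDC2 gate, Itgam was detected in 17 cells and Sirpa in 8, and neither had a UMI in the cDC1 gate. The inhibitory receptor genes Pilra and Siglece stood at 471 and 235 CPM in the cDC2 gate and at 11.4 and 0 in the cDC1 gate. Ifitm3, a membrane protein that restricts virus entry, stood at 1742 CPM against 410, and 28 of its 36 UMIs in the cDC1 gate lay in the 2 cells with high Ly6c2, without which the cDC1 gate stood at 101 CPM. H2-DMb2, a class II exchange factor chain, stood at 711 CPM against 103. Batf3 did not part the gates, with 148 CPM in the cDC1 gate and 147 in the cDC2 gate. Itgae, listed as a cDC1 gene, ran the other way. It was detected in 27.3% of cells with Clec9a and 50% of those without. Among cells with Cd209a it was detected in 61.0%, against 31.4% of those without. Clec9a is not a mark of cDC1 alone in these libraries, since pDC carried it at 178 CPM.

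**Figure D2:**
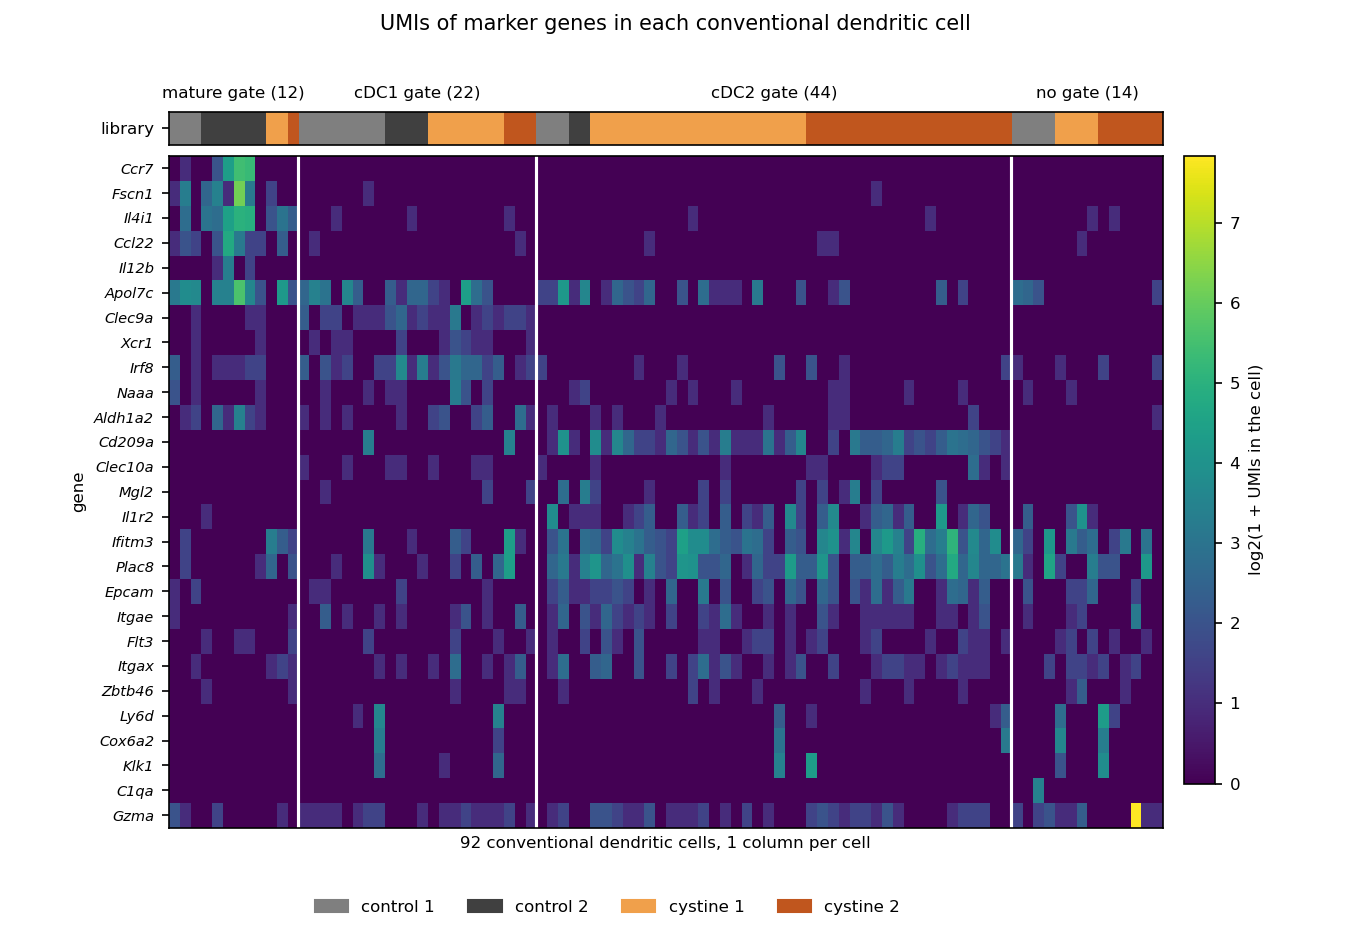
UMIs of 27 genes (rows, log2 of 1 plus the UMIs in a cell) in each of the 92 cells (columns), ordered by gate and then by library (coloured bar); the 3 cells in both the cDC1 and mature gates are drawn under mature, leaving 22 under cDC1. Irf8 runs with Clec9a, Il1r2 and Epcam with Cd209a, and Ccr7, Il4i1 and Il12b are concentrated in the control 2 cells of the mature gate.

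The mature programme came largely from 1 library. Ccr7 had 1, 103, 0 and 0 UMIs in control 1, control 2, cystine 1 and cystine 2, all in 5 cells. Fscn1, which bundles actin in the processes of mature dendritic cells, had 11, 95, 2 and 1 UMIs, and 71 of them were in a single cell. Il4i1, an amino acid oxidase of mature cells, had 7, 95, 12 and 7 UMIs, and Ccl22, which attracts Ccr4-bearing T cells, had 7, 41, 6 and 3. Control 2 was the high library for all 4. The mature gate held 3, 6, 2 and 1 cells by sample. Of these, 2, 1, 0 and 0 cells had only the gate's minimum of 2 UMIs. Relb, an NF-kappaB subunit of mature cells, stood at 823 CPM there against 57.5 in the cDC2 gate, and the costimulation-related gene Cd83 at 933 against 78.5. Cd86, a ligand for Cd28, had 47 UMIs in 28 cells and did not follow the mature gate (137 CPM there and 115 in the cDC2 gate).

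Cytokine transcripts were sparse. Il12b, the shared chain of interleukins 12 and 23, had 12 UMIs in 3 cells, all in control 2 and 9 of them in 1 cell. Il12a, Il23a, Il6, Il27 and Il10 had 0 UMIs among the 350858 UMIs of the members, which allows a level of up to 8.55 CPM each, for counting error only. Ebi3, a subunit of interleukins 27 and 35, had 3, 2, 17 and 20 UMIs, or 56.0, 46.6, 129 and 163 CPM. Its 28 positive cells included 20 of the cDC2 gate. Il1b had 25 UMIs in 13 cells, 9 of them in the cDC2 gate and none in the cDC1 gate. Among chemokines, Cxcl16 had 51 UMIs in 25 cells and Ccl17 had 30 in 12 cells. All 43 UMIs of the interferon-induced chemokine Cxcl10 lay in 1 cystine 1 cell.

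Aldh1a2, the enzyme that makes the retinoic acid with which gut dendritic cells imprint homing on T cells, was detected in 26 members. It had 7, 20, 15 and 12 UMIs, or 131, 466, 114 and 97.6 CPM, with control 2 again high. It was detected in 13 of 25 cDC1-gate cells, 7 of 12 mature cells and 8 of 44 cDC2-gate cells. T cells carried Aldh1a2 at 0.148 CPM and pDC had none. Itgb8, a chain of the integrin that activates TGF-beta, had 1 UMI, and Tgfb1 had 61 UMIs in 41 cells.

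For the diet itself, the first question was how many of these cells the libraries held. They were 0.107% of kept barcodes in control 1 (95% exact binomial interval 0.0634 to 0.169%) and 0.0781% in control 2 (0.0403 to 0.136%). In the cystine samples they were 0.171% (0.118 to 0.240%) and 0.175% (0.117 to 0.251%). Both cystine shares lay above both control shares, with means of 0.173 ± 0.00283% and 0.0925 ± 0.0204% (SD, n = 2 each). The two-sided exact permutation test gave p = 0.333, the smallest p that 2 against 2 samples allow. The direction depended on the denominator. T cells made up 89.0%, 92.5%, 67.0% and 80.8% of kept barcodes, and among kept barcodes without a Cd3 UMI the members were 2.20%, 1.63%, 1.13% and 1.66%, so that the mean difference changed sign to -0.52 percentage points (exact permutation p = 0.667).

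The make-up of the members also differed between the diets' samples. The cDC1 gate held 9, 6, 7 and 3 cells, or 50%, 50%, 21.2% and 10.3% of members, whereas the cDC2 gate held 3, 2, 20 and 19 cells, or 16.7%, 16.7%, 60.6% and 65.5%. The higher count in the cystine libraries thus lay in the cDC2 gate. The mean cDC1 share was lower by 34.2 percentage points on the cystine diet. These shares carry no test, because Xcr1 and Cd209a set both the gates and the definition. Admission also differed between the samples, since Apol7c was detected in 14 of 18, 11 of 12, 18 of 33 and 6 of 29 members. After members were thinned to 1000 UMIs, which left out 1 shallower cell of cystine 2, the cDC1 shares were 33.3%, 41.7%, 15.2% and 3.57%. Median depth per member was higher in both cystine samples, and its part in the make-up beyond this thinning was not tested.

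**Figure D3:**
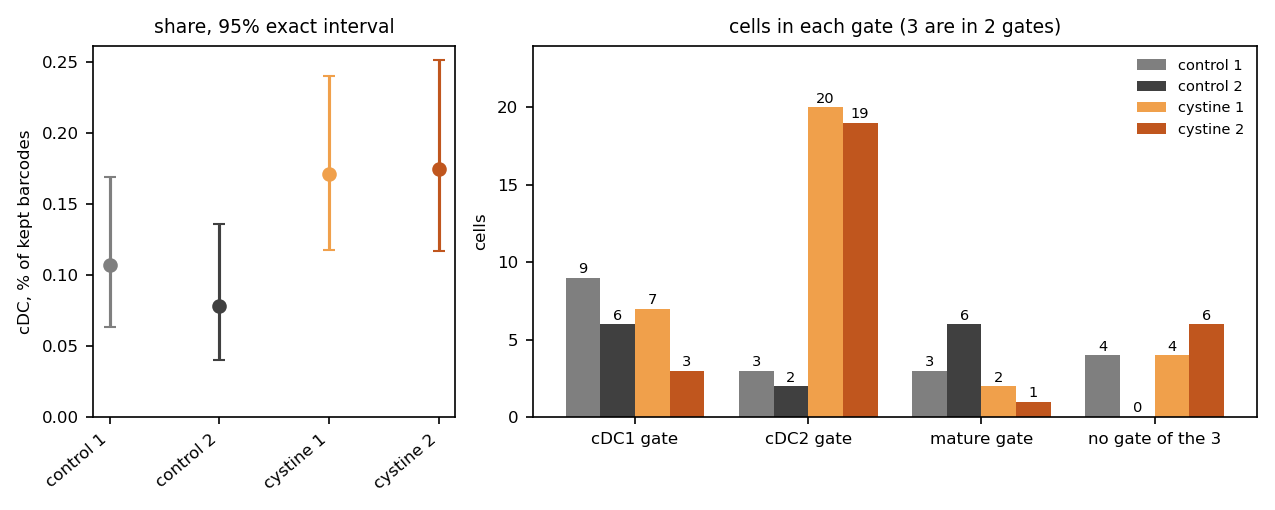
Left, conventional dendritic cells as a percentage of kept barcodes in each library, with 95% exact binomial intervals that cover counting error only; right, number of members in each gate by library. The cDC2 gate holds 3 and 2 control cells against 20 and 19 cystine cells, while the cDC1 gate holds 9 and 6 against 7 and 3.

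Gene levels were compared between diets on the summed members of each library with edgeR's quasi-likelihood test over all 1216 genes with enough counts. No gene passed an adjusted p of 0.05 (0% of those tested), while 151 genes (12.4%) had an unadjusted p under 0.05. A DESeq2 Wald test of the same sums called 6 genes (0.493%), all lower on cystine: Fscn1, Cd81, Ccl22, Ctla2b, Ftl1 and Apol7c. Apol7c belongs to the definition and was the sole admitting gene of 16 members, so its value is a description. The edgeR count rose to 153 without control 1, 22 without control 2, 2 without cystine 1 and 6 without cystine 2. The values that follow are therefore levels and differences that did not pass the edgeR test. Ctla2b, Ftl1, Defa24 and the Ifitm genes have closely similar family members or copies, so their values are uncertain as far as counting split reads between them.

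The 6 genes with the smallest p-values among those higher in both cystine samples were Ifitm1, Ifitm6, Napsa, Hspa5, Malat1 and Ier2. Ifitm1, of the interferon-induced transmembrane family, stood at 131, 46.6, 457 and 610 CPM in control 1, control 2, cystine 1 and cystine 2, from 29 cells. Its log2 difference was 2.47 with a standard error of 0.44 (edgeR adjusted p = 0.253). Ifitm6 stood at 131, 69.9, 350 and 439 CPM. Both were low in the cDC1 gate, with 0 and 11.4 CPM against 403 and 507 in the cDC2 gate. The cDC2 gate held 0, 0, 23 and 54 of the 7, 2, 60 and 75 Ifitm1 UMIs by sample. The remaining Ifitm1 UMIs, with all those of the controls, lay in cells outside the cDC1 and cDC2 gates. Within the cDC2 gate, where the control sums hold 3 and 2 cells, the fitted log2 difference of Ifitm1 was 7.40 (edgeR adjusted p = 0.339), against 0 control UMIs. Ifitm6 stood at 303, 466, 500 and 538 CPM there, and its log2 difference of 1.89 over all members became 0.59 (edgeR adjusted p = 0.902). Napsa, an aspartic protease, stood at 728, 722, 1500 and 1520 CPM, and its log2 difference of 1.02 became 0.11 when only cDC2-gate cells were summed. Hspa5, the chaperone of the endoplasmic reticulum, stood at 187, 93.2, 487 and 480 CPM, with a log2 difference of 1.71, and 2.91 within the cDC2 gate (edgeR adjusted p = 0.407 there). For each of these genes the diets did not overlap, which the choice of genes required.

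Lower in both cystine samples, by the same choice, were Ctla2b, Pla2g7, Fscn1, Cd81, Ccl17 and Ucp2. Ctla2b, a cysteine protease inhibitor-like gene, stood at 634, 513, 114 and 106 CPM, a log2 difference of -2.41 with a standard error of 0.30 (edgeR adjusted p = 0.092). It stood at 786 CPM in the cDC1 gate and 57.5 in the cDC2 gate. Cd81 stood at 261, 629, 45.7 and 0 CPM, and Ccl17, a chemokine for Ccr4-bearing T cells, at 187, 233, 45.7 and 32.5. Ucp2, a mitochondrial carrier, stood at 2127, 3052, 1272 and 1122 CPM and at 3132 CPM in the cDC1 gate against 942 in the cDC2 gate. Its log2 difference was -1.15 over all members (edgeR adjusted p = 0.253) and 0.77 within the cDC2 gate (edgeR adjusted p = 0.698). Within that gate only Malat1 (log2 difference 1.66), Cst3 (-1.20) and Apol7c (-2.71) passed edgeR's adjusted threshold over 631 genes. The controls there rest on 3 and 2 cells, and Cst3 and Apol7c are genes of the definition. Malat1 stood at 1616, 3416, 7416 and 6580 CPM in the cDC2 gate. Over all members, Malat1 was detected in 15 of 18, 5 of 12, 31 of 33 and 26 of 29 cells. The part of cell or RNA quality in the Malat1 difference was not tested. Apol7c over all members stood at 1959, 2539, 678 and 122 CPM.

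**Figure D4:**
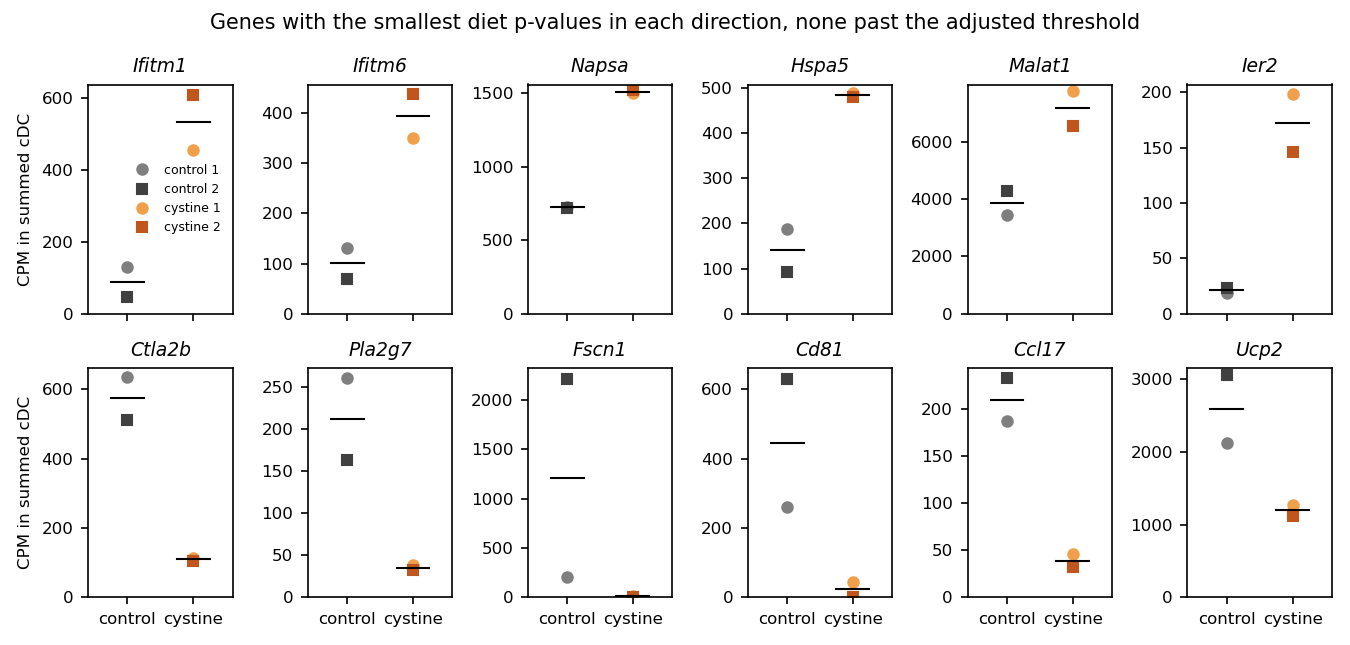
Level (CPM in the summed conventional dendritic cells) of 12 genes, the 6 in each direction with the smallest diet p-values among genes outside the definition whose diets did not overlap and whose mean reached 50 CPM in either diet, with 1 point per library and a line at the mean of the 2 libraries of a diet. Ctla2b stood at 634 and 513 CPM in the controls and at 114 and 106 CPM in the cystine samples; none of the 12 passed the adjusted threshold of edgeR.

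Gene groups were read against all 1216 genes, whose median log2 difference was 0.02. Of all 1216, 627 were higher and 589 lower on cystine, and 151 (12.4%) had an unadjusted edgeR p under 0.05. Both cystine values lay above both control values in 26.3% of these genes and below both in 19.9%. Of 11 tested genes of class II presentation outside the definition, none passed edgeR's adjusted threshold, 9 had a higher mean fit on cystine, 6 had no overlap and the median log2 difference was 0.45. Those 6 were H2-Ab1, H2-Eb1, H2-Oa, H2-DMa, H2-DMb2 and Ciita, and Cd74 was at -0.08. Of 8 cDC1 genes, 0 passed and 6 were lower, with a median of -0.46. Clec9a was at -1.82, Irf8 at -1.58 and Batf3 at -0.19, while Itgae (0.37) and Wdfy4 (0.42) were higher. Of 5 cDC2 genes, 0 passed and 4 were higher, with a median of 0.80, and Mgl2 was lower at -0.53. Clec9a and Mgl2 are genes of the gates and Irf8 followed the gates. The cDC1 and cDC2 lists are therefore not a reading separate from the make-up of the members. Of 8 tested mature genes, 0 passed and 5 were lower without overlap, with a median of -1.94, and these sums hold the 6 mature cells of control 2. Of 12 class I genes, 9 were lower and none passed, with the beta chain B2m at -0.62. At an unadjusted edgeR p under 0.05 there were 4 of the class II genes, 3 of the cDC1 genes, 1 of the cDC2 genes, 6 of the mature genes and 1 of the class I genes. Of all these, the DESeq2 test called only Fscn1 and Ccl22, both on the mature list.

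Genes of cystine use and glutathione were of interest because of the diet. Slc7a11, the cystine importer, had 1 UMI in all 92 cells, so no diet difference was detectable at this depth. Its partner Slc3a2 had 4, 4, 14 and 4 UMIs. Of the 24 genes on the list, 7 were tested, none passed, 3 were higher and 4 lower, and the median log2 difference was -0.37. Gpx1, the glutathione peroxidase that made up most of the group's UMIs, stood at 2947, 2027, 3008 and 3894 CPM, with a log2 difference of 0.43 and a standard error of 0.21. Thioredoxin, Txn1, stood at 261, 699, 137 and 130 CPM (log2 difference -1.83, edgeR adjusted p = 0.262). At an unadjusted edgeR p under 0.05 there was 1 gene of the list, Txn1, and the DESeq2 test called none. Control 2 was the high library for Txn1, with 30 of its 78 UMIs. In the comparison with pDC given below, Txn1 was among the 36 genes called (difference of diet effects -1.73, edgeR adjusted p = 0.0148). It stood at 270, 296, 275 and 287 CPM in pDC. Of the 14 genes of the ATF4 amino acid response, none had enough counts to be tested.

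Other groups also gave no call with edgeR. Of 6 interferon response genes tested, 5 were higher on cystine, with a median log2 difference of 0.33, 2 had no overlap and 2 had an unadjusted edgeR p under 0.05. Isg15, a ubiquitin-like protein, stood at 93.3, 46.6, 373 and 203 CPM, and 32 of its 81 UMIs lay in 1 cell. All 5 immediate early genes tested were higher on cystine, as were 627 of all 1216 genes. Their median was 0.94, 3 had no overlap and 3 had an unadjusted edgeR p under 0.05. Among them, Ier2 stood at 18.7, 23.3, 198 and 146 CPM. Of 24 ribosomal protein genes, 14 were higher and 10 lower, with a median of 0.02. Of the marker lists of other cells, 6 of 6 tested pDC genes were higher on cystine, with a median log2 difference of 0.55. The summed pDC list stood at 1921, 582, 1554 and 2390 CPM in members, and Siglech was at 0 by the definition. Without the 8 cells with pDC genes, edgeR called 0 genes (152 of 1101 at an unadjusted p under 0.05), and DESeq2 was not run on that subset. The edgeR fit over all members also called 0, so this count cannot show the part of these cells in any diet difference. That part was not tested.

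Last, the diet difference of the members was set against that of pDC from the same 4 libraries, in 1 edgeR fit with the sample as a block. Of 5294 genes, 36 differed between the cell types at an adjusted p under 0.05 (0.680%), 17 toward higher and 19 toward lower on cystine in the members, and the median of all log2 differences was 0.27. Cst3 and Cd209a are among them and belong to the definition. Irf8 stood at 373, 722, 259 and 106 CPM in members and at 1717, 1967, 1958 and 1906 in pDC, a difference of diet effects of -1.60 with a standard error of 0.33 (edgeR adjusted p = 0.000801). Ifitm3 stood at 821, 163, 1256 and 1862 CPM in members and at 64.9, 133, 93.7 and 67.9 in pDC. Its difference of diet effects was 1.96 (edgeR adjusted p = 0.000164). Within the members, Irf8 was higher in the cDC1 gate than in the cDC2 gate, and Ifitm3 was lower. The cDC1 gate held 50%, 50%, 21.2% and 10.3% of members by sample. The part of this make-up in the differences against pDC was not tested. Ftl1, the ferritin light chain, had the smallest p, with 4216, 12393, 2604 and 2585 CPM in members and a difference of -1.43. Control 2 was the high library for Ftl1, and for 7 of the 36 genes it held most of the members' UMIs.

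The calls against pDC rest on few cells. The fit takes 1 spread per gene for sums of 12 to 454 cells, and leaving out the 12 mature cells reduced the calls from 36 to 8. Without control 1 there were 73 calls, without control 2 there were 7, without cystine 1 there were 9 and without cystine 2 there were 3.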

How the data were processed

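The deposited matrices hold unnormalised UMI counts per gene and barcode for 32285 genes, as the authors made them; each deposited barcode has at least 500 UMIs. Library totals were 27229695 and 30684435 UMIs (control) and 31301936 and 31215609 (cystine). Cell Ranger 3.1.0, Seurat 4.0.1 and GRCm39 are named in the submitters' processing notes, while the matrix headers name version 7.0.1; the references at hand are of another build, so no coordinates come from the files. A barcode was kept if it had 300 or more genes and no more than 10% of its UMIs from mitochondrial genes.

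Members, gates and gene lists were chosen with earlier results of these data known. Counts were summed per library and cell type and tested with edgeR 4.0.16 (filterByExpr, TMM, glmQLFTest, Benjamini-Hochberg), with groups as the only term; DESeq2 1.42.0 was an alternative. Scripts were tested on simulated counts. Shares were compared by exact permutation. Thinning drew 1000 UMIs per cell. Named genes were the 6 with the smallest p per direction (no overlap between diets, a group mean of at least 50 CPM), the 20 with the highest level, the 20 with the largest ratio to other kept cells (at least 100 CPM and 20 UMIs), the most abundant members of each list, and fixed subset genes; ribosomal, mitochondrial and definition genes were left out of the rankings. Relb, Cd83, Siglece and Ppt1, and values of single cells, were chosen after they were seen. Alternatives covered the gate, quality limits, doublet scores, denominators, filters, normalisation, the replicate number as a block and each sample left out. Other cells were gated on at least 2 UMIs of Siglech (pDC), at least 2 of Cd3e, Cd3d and Cd3g (T), at least 1 each of Cd79a and Ms4a1 (B), or at least 3 of Lyz2 with a macrophage gene.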

Additional observations from a re-analysis of the deposited data

Results flagged for a closer look

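The diet effect of conventional dendritic cells differed from that of plasmacytoid dendritic cells for 36 genes, by the interaction term of 1 edgeR fit over both cell types. The 6 with the largest size outside the definition of the cells, at a mean of at least 50 CPM in either diet, follow as values. Itpr1 had 0, 0, 11 and 22 UMIs in the members of control 1, control 2, cystine 1 and cystine 2, at least 4.18-fold higher on cystine against a limit of 3 counts over the control group. Its fitted log2 difference of 9.30 depends on the prior count and is no bound, and pDC carried Itpr1 at 137, 141, 152 and 108 CPM. The Itpr1 call was lost without control 1 (edgeR adjusted p = 0.180), control 2 (0.252) or cystine 2 (1), and without the mature cells (0.0569). Cd63 had 6, 15, 0 and 1 UMIs in 6 cells, with a log2 difference of -6.71. Its call was lost without control 2 (edgeR adjusted p = 0.0758), cystine 1 (0.0556) or cystine 2 (1). Apoe had 20, 0, 3 and 1 UMIs, 17 of them in 1 cell, with a log2 difference of -4.01. It was 4.86 without control 1 (edgeR adjusted p = 0.798) and -1.46 under the stricter quality limits (0.912), and the call was also lost without cystine 1 (0.114) or cystine 2 (0.644). Il4i1 had 7, 95, 12 and 7 UMIs, with a log2 difference of -3.85. Without control 2 it was -0.64 (edgeR adjusted p = 0.964), and the call was also lost without cystine 1 (0.527) or cystine 2 (0.0674). Gadd45b had 3, 15, 0 and 4 UMIs in 8 cells, 5 of them in the mature gate, with a log2 difference of -3.85. It was -0.95 without the mature cells (edgeR adjusted p = 0.991), -1.44 with T, B and plasma cell genes required at 0 (0.958) and -1.94 without control 2 (0.871). The call was also lost without cystine 1 (0.515) and without cystine 2 (0.0674), where the fit gave -9.40 against 0 UMIs. Fkbp3 had 1, 0, 13 and 20 UMIs in 25 cells, with a log2 difference of 3.84 (edgeR adjusted p = 0.0467). Its call was lost under 12 of 13 alternatives, among them DESeq2 size factors (0.0523) and no filter on low counts (0.113), and with 1 sample left out the value ran from 3.01 to 9.55, the latter against 0 UMIs.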

How the results depend on the processing

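The higher share of conventional dendritic cells on cystine kept its direction under 8 of the alternatives that used all 4 samples and was 0.0660 to 0.0949 percentage points with 1 sample left out. It turned to -0.52 among kept barcodes without Cd3 UMIs, where the denominator no longer holds the T cells. The lower cDC1-gate share kept its direction under every alternative tried and was -39.7 to -28.8 percentage points with 1 sample left out. All of these alternatives used the same cDC1 gate on cells admitted through the same genes, Xcr1 and Cd209a included. They therefore could not show how far this share follows from the definition, and the share carries no test.

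For genes changed by diet, edgeR called 0; the DESeq2 Wald test called 6, no filter on low counts 62, removal of high Scrublet scores 1, and cDC2-gate cells alone 3. Leaving out 1 sample gave 2 to 153 calls, where the lone sample is assumed to vary like the other diet. With the replicate block 0 genes were called; deviations of same-numbered samples correlated at -0.064 over 1216 genes, so the numbers were not taken as pairs. The 36 calls against plasmacytoid dendritic cells became 22 when T, B and plasma cell genes were also required at 0, 8 without mature cells, of which 6 were shared, and 3 to 73 with 1 sample left out. The Apoe difference ranged from -4.81 to 4.86 with 1 sample left out, and Ucp2 turned to 0.77 in cDC2-gate cells alone. The cause of these shifts was not tested. Alternatives without pDC-marked, mature or cDC1-gate cells, and within the cDC2 gate, were chosen after seeing the data. Sums of 12 to 33 cells limit every gene-level statement.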
